A study of Mus musculus with 15 samples.

Results

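The genes that build sterols and fatty acids were followed as a group of 32: 16 enzymes of sterol synthesis, 5 genes that regulate the pathway or carry sterol, and 11 genes that make, elongate, desaturate or activate fatty acids. Members were taken by gene symbol from a fixed list and matched to the gene name printed on the array, and for each gene the probe with the highest mean processed signal over the 15 arrays was read. All 32 were on the array, and all 32 were well above background on every array. The array carried 31753 gene names, of which 25085 passed the filter on dim probes and were tested.

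RNA came from mouse embryonic stem (ES) cells transfected with a short hairpin, sh4, or with its control, shCTR. Cells of each kind were left untreated or were given retinoic acid at 1 µM for 72 hours. Retinoic acid, made from vitamin A, induces ES cells to differentiate. The 4 groups were untreated shCTR with 4 arrays, untreated sh4 with 4, retinoic acid-treated shCTR with 4 and retinoic acid-treated sh4 with 3. The series title names Phf19, a Polycomb-associated protein that binds methylated lysine 36 of histone H3, and the labels do not say what sh4 targets or which ES cell line was used. Replicates are called biological, but separate cultures or transfections are not stated, so the p-values cover the spread among these samples alone, which may be technical. No culture time is given for untreated cells, so retinoic acid and 72 hours of culture cannot be told apart. A bulk RNA level also cannot separate fewer cells of a type from less RNA per cell.

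Cholesterol is made from acetyl-CoA through the mevalonate pathway, which leads to farnesyl diphosphate, squalene, lanosterol and then, over several reductions and isomerisations, cholesterol. Fatty acids start from the same acetyl-CoA, which Acaca carboxylates and Fasn joins into palmitate, before elongases lengthen the chain and desaturases put in double bonds. Both branches share a control circuit: when membrane sterol falls, the escort protein Scap carries the precursors of the SREBP transcription factors (products of Srebf1 and Srebf2) to the Golgi for cleavage, and when sterol is plentiful Insig proteins hold Scap back in the endoplasmic reticulum. Insig1 is itself an SREBP target gene, as are most enzymes of the list, and many carry a sterol regulatory element (SRE), CCAAT boxes bound by NF-Y and GC boxes bound by Sp1 close to the start site.

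Start-site windows were available in RefSeq (GRCm38.p6) for 25 of the 32 genes, in 31 windows of 300 bases that run from 250 before to 50 after the start. A search of both strands for the SRE spellings TCACNCCAC and TCANCCCAC, which can match the same bases, found a match in 2 of the 25 genes, Hmgcs1 and Elovl5. By window, a match stood in 6.45% of the 31 windows, against 2.07% of all 32851 RefSeq windows of that length. CCAAT was present in 20 of the 25 genes and 67.7% of their windows, against 37.4% of all windows, and GGGCGG in 20 of the 25 and 74.2%, against 35.7%. By branch, CCAAT stood in 15 of 17 sterol genes and 5 of 8 fatty acid genes, beside 41.1% of all genes with a window. GGGCGG stood in 16 of 17 and 4 of 8, beside 38.2% of all genes. These are counts of letters and not measurements of binding. The 150 bases before the start are given for Hmgcs1, whose SRE lies upstream of its start, and for the genes with the largest hairpin difference in retinoic acid (Insig1), the largest in untreated cells (Acss2) and the largest retinoic acid difference (Elovl6). Capitals mark SRE, CCAAT and GGGCGG matches on either strand, and all 4 stretches read 5′ to 3′ on the plus strand.
Hmgcs1, chr13:119690201-119690350: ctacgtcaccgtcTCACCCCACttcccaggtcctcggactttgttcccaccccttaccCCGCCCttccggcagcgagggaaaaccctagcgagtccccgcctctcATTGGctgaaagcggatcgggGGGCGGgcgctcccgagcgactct
Insig1, chr5:28071262-28071411: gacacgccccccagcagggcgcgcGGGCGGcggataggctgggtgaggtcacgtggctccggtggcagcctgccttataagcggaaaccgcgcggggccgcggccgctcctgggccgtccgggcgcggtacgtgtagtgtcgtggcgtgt
Acss2, chr2:155517893-155518042: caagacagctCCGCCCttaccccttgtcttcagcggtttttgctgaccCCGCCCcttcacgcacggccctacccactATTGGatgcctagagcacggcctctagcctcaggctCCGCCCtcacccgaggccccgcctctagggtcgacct
Elovl6, chr3:129532236-129532385: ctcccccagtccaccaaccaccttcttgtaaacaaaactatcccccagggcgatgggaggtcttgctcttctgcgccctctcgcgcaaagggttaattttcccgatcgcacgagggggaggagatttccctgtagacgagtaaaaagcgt
In these stretches Hmgcs1 held 1 SRE, 1 CCAAT and 2 GGGCGG matches, Acss2 held 1 CCAAT and 3 GGGCGG, Insig1 held 1 GGGCGG, and Elovl6 held none of the motifs.

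Signal was similar across arrays: the share of probes well above background was 73.8% to 79.3%, the 75th percentile of intensity ran from 1509 to 1911, and no spot was saturated. The number of arrays limits the precision. A quality rating of "evaluate" was given by the scanner software to 3 arrays, untreated shCTR replicate 2, untreated sh4 replicate 3 and retinoic acid-treated sh4 replicate 1. Phf19 in sh4 stood at 30.2% of its shCTR level in untreated cells and at 54.4% in retinoic acid, with every sh4 array below every shCTR array of the same treatment. The 10 ES cell markers (Pou5f1, Nanog and others) were well above background on every array, and their summed level was 386 to 470 in untreated shCTR, 356 to 388 in untreated sh4, 98 to 106 in treated shCTR and 53.3 to 65.2 in treated sh4, in multiples of each array's 75th percentile. Such a sum weighs bright probes most, and Dppa5a had the highest mean signal of these markers, 160000. With retinoic acid 9 of the 10 were called lower in shCTR and 10 in sh4 (33.5% and 31.6% of all tested genes). Their median log2 differences were −4.52 and −4.65. Between treated hairpins 6 were called lower in sh4 and 1 higher (10.3% and 10.9% of all genes). Levels below are log2 values relative to the 75th percentile of an array, so that 0 is that percentile. They are compared for a single probe across arrays and never between genes. Differences are log2 fold changes ± standard error, adjusted p is limma's with Benjamini-Hochberg adjustment over all 25085 genes, and a gene "rose" or "fell" only where adjusted p was under 0.05.

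**Figure D1:**
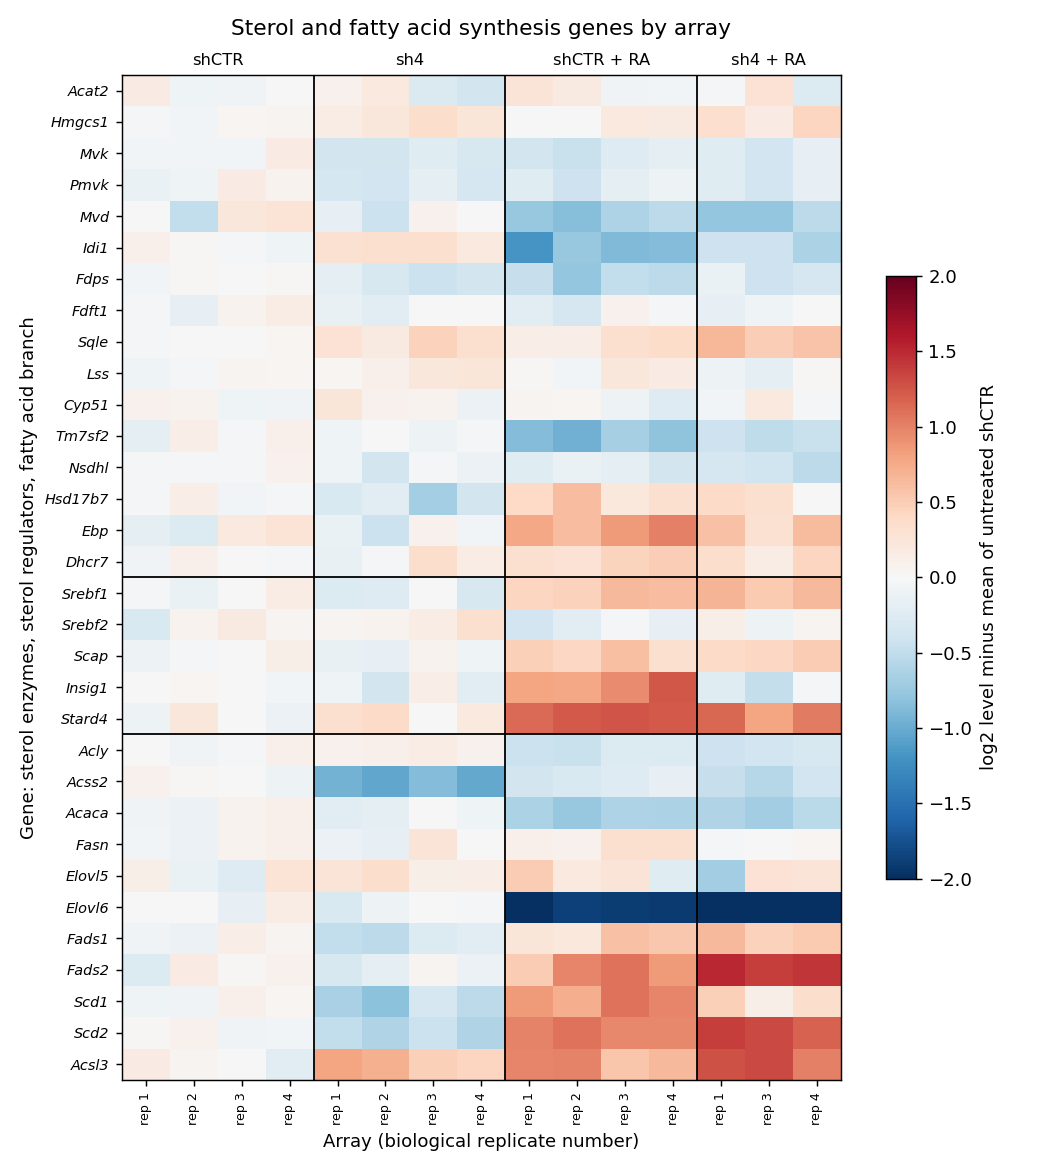
Log2 level of each of the 32 genes (rows) on each of the 15 arrays (columns), minus the mean of the 4 untreated shCTR arrays, on a colour scale from −2 (blue) to 2 (red). Elovl6 was low on all 7 retinoic acid arrays, Scd2, Fads2 and Stard4 were high on them, Acss2 was low on the 4 untreated sh4 arrays, and Insig1 was high only on the 4 treated shCTR arrays.

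In untreated cells, the sh4 samples had less mRNA for Acss2 and for the desaturases Scd1, Scd2 and Fads1, and small shifts in both directions along the sterol pathway. Of the 32 genes, 4 rose, where 14.4% of all tested genes rose, and 8 fell, where 14.1% of all genes fell. In the sterol branch 3 of 21 rose (Sqle, Idi1, Hmgcs1) and 4 fell (Hsd17b7, Fdps, Mvk, Pmvk), with a median difference of −0.09. With array medians subtracted, Hsd17b7 was the one sterol call left (adjusted p of the others 0.05 to 0.42). In the fatty acid branch 1 of 11 rose (Acsl3) and 4 fell (Acss2, Scd1, Scd2, Fads1), with a median of −0.13, beside 0.02 over all genes. The fall of Acss2, which makes acetyl-CoA from acetate, by 0.97 was the largest. All 8 of the listed trophectoderm markers rose in the same comparison, from a summed level of 4.83 to 6.38 in shCTR to 72.9 to 83.3 in sh4, and their part in these differences was not tested. Bright probes weigh most in such a sum, and Krt8 and Krt18 had the highest mean signal of these markers over all arrays. Of these markers Elf5 was well above background on no untreated shCTR array and on 2 of the 4 sh4 arrays, so its level there is not well measured.

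In retinoic acid, the hairpin difference was led by Insig1, which stood in sh4 at 43.8% of its shCTR level. Here 6 of the 32 genes rose, where 10.9% of all tested genes rose, and 2 fell, where 10.3% of all fell. Rises were seen for 4 of 21 sterol genes (Idi1, Tm7sf2, Sqle, Fdps) and for 2 of 11 fatty acid genes (Fads2, Scd2), and falls for Insig1 and Scd1. The median difference was 0 in the sterol branch and −0.02 in the fatty acid branch, beside 0.04 over all genes. Without treated sh4 replicate 1, the count of sterol genes went from 5 to 3 (2 up, 1 down), and all genes gave 1845 rises and 2103 falls. With the slide as a block the sterol count was 8 (5 up, 3 down), and all genes gave 3764 rises and 3306 falls. The fit without either change gave 2737 rises and 2588 falls over all genes.

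Retinoic acid changed most of the list, as it changed most of the tested genes. In shCTR 13 of the 32 genes rose, where 29% of all tested genes rose, and 11 fell, where 33.5% of all fell. In sh4 12 rose, where 27.1% of all rose, and 8 fell, where 31.6% of all fell. In shCTR 8 sterol genes rose and 7 fell, and in the fatty acid branch 5 rose and 4 fell. In sh4 the counts were 6 and 5 in the sterol branch and 6 and 3 in the fatty acid branch. The branch medians were 0.08 (sterol) and 0.21 (fatty acid) in shCTR and 0.06 and 0.50 in sh4, beside −0.12 over all genes in either hairpin. With array medians subtracted in place of the 75th percentile, the median of all genes moved to −0.33 in shCTR and −0.27 in sh4, and rises made up 35.4% and 37.8% of all calls, in place of 46.4% and 46.2%. Under that scaling the sterol counts in shCTR became 3 up and 9 down, and the sterol medians changed sign, to −0.12 in shCTR and −0.08 in sh4.

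The hairpin difference itself differed between treated and untreated cells for 8 genes. In this interaction 7 of the 32 genes rose (Mvk, Fdps, Tm7sf2, Acss2, Fads1, Fads2, Scd2), where 10.2% of all tested genes rose, and Insig1 alone fell, where 10.2% of all fell. With the slide as a block all 8 held, and all genes gave 6919 calls in place of 5135. In that fit Pmvk (0.31, adjusted p = 0.019) and Lss (−0.31, adjusted p = 0.0083) were called as well. The medians were 0.07 in the sterol branch and −0.01 in the fatty acid branch, beside 0.01 over all genes. All 5 comparisons draw on the same 15 arrays and share groups, so their values for one gene are not independent. Over the 5 comparisons there were 72 calls among the 32 genes, and 37 of them held in every alternative processing that was run: 4 of 12 for the hairpin in untreated cells, 2 of 8 for the hairpin in retinoic acid, 13 of 24 and 14 of 20 for retinoic acid in shCTR and sh4, and 4 of 8 for the interaction.

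**Figure D2:**
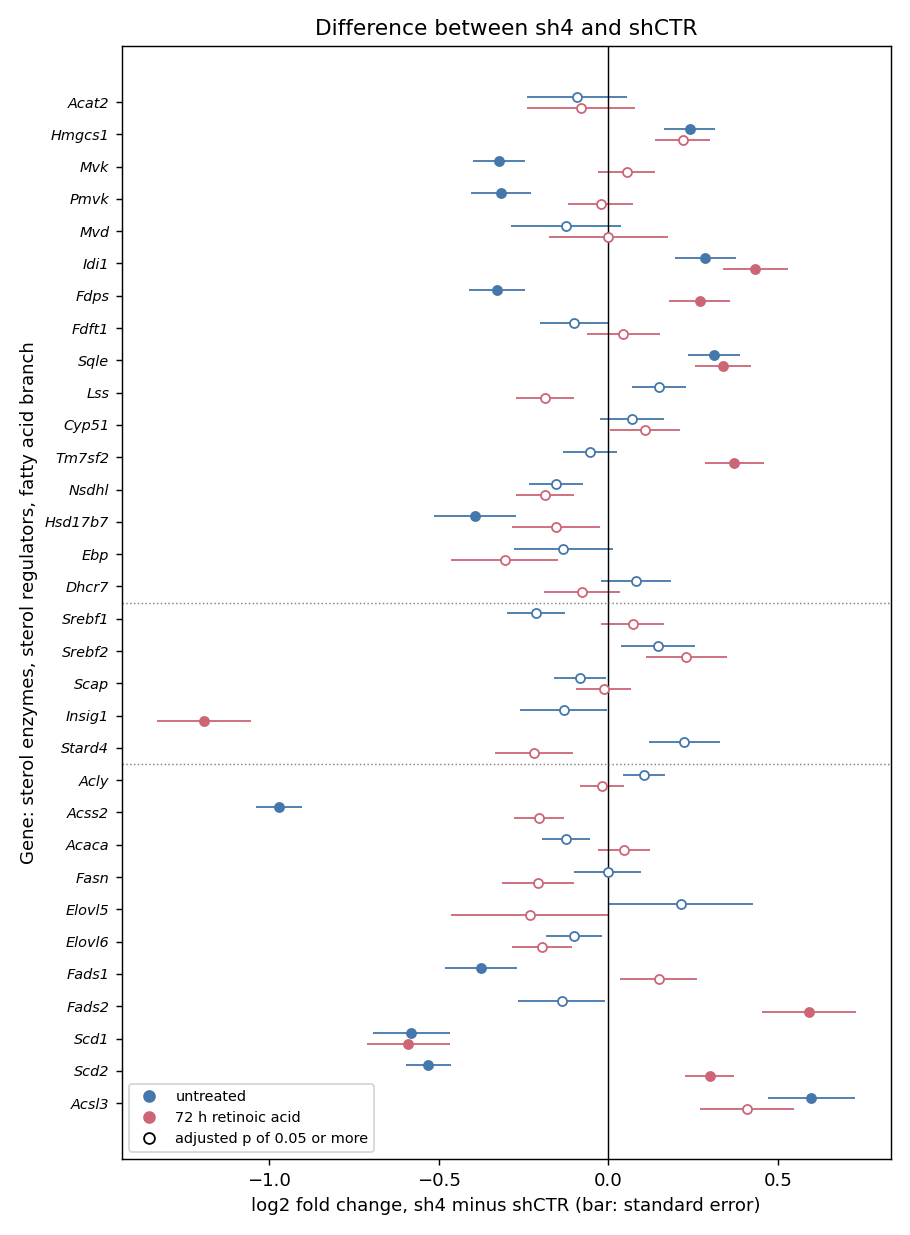
Log2 fold change of sh4 against shCTR for each gene in untreated cells (blue, 4 against 4 arrays) and in retinoic acid (red, 3 against 4 arrays). Bars are standard errors and open circles mark an adjusted p of 0.05 or more. Insig1 in retinoic acid (−1.19) and Acss2 in untreated cells (−0.97) lie farthest to the left, and Scd2 and Fdps lie on opposite sides of 0 in untreated and treated cells.

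Among the regulators, Insig1 gave the clearest hairpin difference. Its probe lay at chr5:28404246-28404305 in the mm9 coordinates of the array files. Insig1, the retention factor for Scap, measured −3.82, −3.78, −3.81 and −3.88 on the untreated shCTR arrays and −3.91, −4.19, −3.68 and −4.03 on the untreated sh4 arrays. After retinoic acid it measured −3.03, −3.05, −2.88 and −2.58 in shCTR and −4.07, −4.29 and −3.87 in sh4. The 4 treated shCTR arrays thus lay above all 11 others, and the treated sh4 arrays overlapped both untreated groups. Retinoic acid raised Insig1 in shCTR by 0.94 ± 0.13 (adjusted p = 2e-05) and its difference in sh4 was −0.12 ± 0.14 (adjusted p = 0.48). Between hairpins the difference was −1.19 ± 0.14 in retinoic acid (adjusted p = 3.9e-05) and −0.13 ± 0.13 in untreated cells (adjusted p = 0.56). The difference of those differences was −1.06 ± 0.19 (adjusted p = 0.0012). Within slides 1, 2 and 3 the treated difference was −1.03, −1.24 and −0.99. The size depended on the processing. Over the alternatives the treated hairpin difference ran from −1.295 to −0.796, the rise in shCTR from 0.517 to 0.991 and the interaction from −1.164 to −0.68.

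Markers of primitive and visceral endoderm, a cell fate that ES cells take up in retinoic acid, were also highest in treated shCTR. The summed level of 12 markers was 2 to 2.23 in untreated shCTR, 0.823 to 0.945 in untreated sh4, 57.9 to 67.9 in treated shCTR and 13.9 to 14.2 in treated sh4. Cubn weighs most in this sum, with a mean signal of 17100 over all arrays, against at most 4880 for the others. All 12 rose with retinoic acid in shCTR and all 12 were lower in sh4 than in shCTR in retinoic acid, while the defining markers Afp and Ttr were well above background on no untreated array. With retinoic acid in sh4 the marker sum was higher, with 10 of the 12 markers up and 1 down (27.1% and 31.6% of all genes). In untreated cells the sum was lower in sh4, with 8 markers down and 0 up (14.1% and 14.4% of all genes). Insig1 was not called in either comparison. The part of these cells in the Insig1 difference was not tested. Trophectoderm markers in retinoic acid summed to 298 to 322 in shCTR and 271 to 331 in sh4. Bright probes weigh most in such a sum, and Krt8 and Krt18 had mean signals of 107000 and 172000, against at most 1910 for the others. Gene by gene, 2 of the 8 were higher in treated sh4, 3 were lower and 3 were not called, with differences from −1.19 to 1.32.

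Srebf1, which encodes the SREBP-1 factors that act mainly on fatty acid genes, rose with retinoic acid in both hairpins. Srebf1 measured −3.12, −3.23, −3.09 and −2.94 in untreated shCTR and −2.66, −2.63, −2.44 and −2.48 in treated shCTR. In sh4 the untreated arrays gave −3.37, −3.35, −3.11 and −3.41 and the treated arrays −2.41, −2.57 and −2.45. Treated and untreated arrays did not overlap in either hairpin, and the hairpins overlapped within either treatment. The rise was 0.54 ± 0.09 in shCTR (adjusted p = 7.7e-05) and 0.83 ± 0.09 in sh4 (adjusted p = 3.3e-06). Their difference of 0.29 ± 0.13 missed the threshold (adjusted p = 0.15). In untreated cells the hairpin difference was −0.21 ± 0.09 (adjusted p = 0.085), which passed when sh4 replicate 3 was left out (adjusted p = 0.022) and in the fit that blocked on slide (adjusted p = 0.042).

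Scap, the escort of the SREBP precursors, also rose with retinoic acid. Scap measured 3.26, 3.34, 3.35 and 3.47 on the untreated shCTR arrays, 3.20, 3.19, 3.42 and 3.27 on the untreated sh4 arrays, 3.84, 3.76, 3.95 and 3.67 in treated shCTR, and 3.74, 3.77 and 3.87 in treated sh4. Every treated array was above every untreated one, and the hairpins overlapped in both treatments. The rise was 0.45 ± 0.08 in shCTR (adjusted p = 0.00013) and 0.52 ± 0.08 in sh4 (adjusted p = 8.4e-05). With array medians subtracted, the rises of Scap and Srebf1 in shCTR missed the threshold (0.25, adjusted p = 0.13, and 0.34, adjusted p = 0.06).

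Srebf2, which encodes the SREBP-2 factor that acts mainly on sterol genes, passed none of the 5 tests at this scaling. Srebf2 measured −1.15, −0.78, −0.67 and −0.78 on the untreated shCTR arrays, −0.79, −0.78, −0.69 and −0.53 on the untreated sh4 arrays, −1.23, −1.07, −0.88 and −1.01 in treated shCTR, and −0.73, −0.94 and −0.79 in treated sh4. All 4 groups overlapped with at least one other, and the shCTR range was widened by replicate 1 in both treatments. The difference with retinoic acid in shCTR was −0.21 ± 0.11 (adjusted p = 0.12), and it passed without untreated shCTR replicate 1 (−0.31, adjusted p = 0.014) with array medians subtracted (−0.41, adjusted p = 0.045) and with quantile normalisation (−0.29, adjusted p = 0.042). With both Srebf2 probes averaged, it was called lower after retinoic acid in shCTR (−0.30, adjusted p = 0.013) and in sh4 (−0.32, adjusted p = 0.016). With normexp background correction and quantile normalisation the treated hairpin difference passed as well (0.30, adjusted p = 0.035). A second, dimmer Srebf2 probe gave 0 for that treated hairpin difference and −0.40 for retinoic acid in shCTR.

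Stard4, a carrier of cholesterol between membranes and an SREBP target, showed the largest retinoic acid rise of the sterol branch in shCTR. Stard4 measured −1.36, −1.02, −1.27 and −1.38 in untreated shCTR and −0.12, −0.03, −0.001 and −0.03 in treated shCTR. In sh4 it measured −0.94, −0.88, −1.26 and −1.06 untreated and −0.11, −0.47 and −0.21 treated. Treated arrays lay above all untreated arrays, and the hairpins overlapped within each treatment. The rise was 1.21 ± 0.11 in shCTR (adjusted p = 2.2e-07) and 0.77 ± 0.11 in sh4 (adjusted p = 4.9e-05). The interaction of −0.44 ± 0.16 missed the threshold (adjusted p = 0.063) and passed it when treated sh4 replicate 1, untreated sh4 replicate 3 or untreated shCTR replicate 2 was left out (adjusted p of 0.025 to 0.047). A second, dimmer Stard4 probe gave 0.35 and −0.61 for the hairpin, untreated and treated, and 1.65 and 0.69 for retinoic acid in shCTR and sh4. With both probes averaged, Stard4 was called higher in untreated sh4 (0.29, adjusted p = 0.0047) and lower in treated sh4 (−0.41, adjusted p = 0.00092). The interaction was then −0.70 and called (adjusted p = 0.00018).

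**Figure D3:**
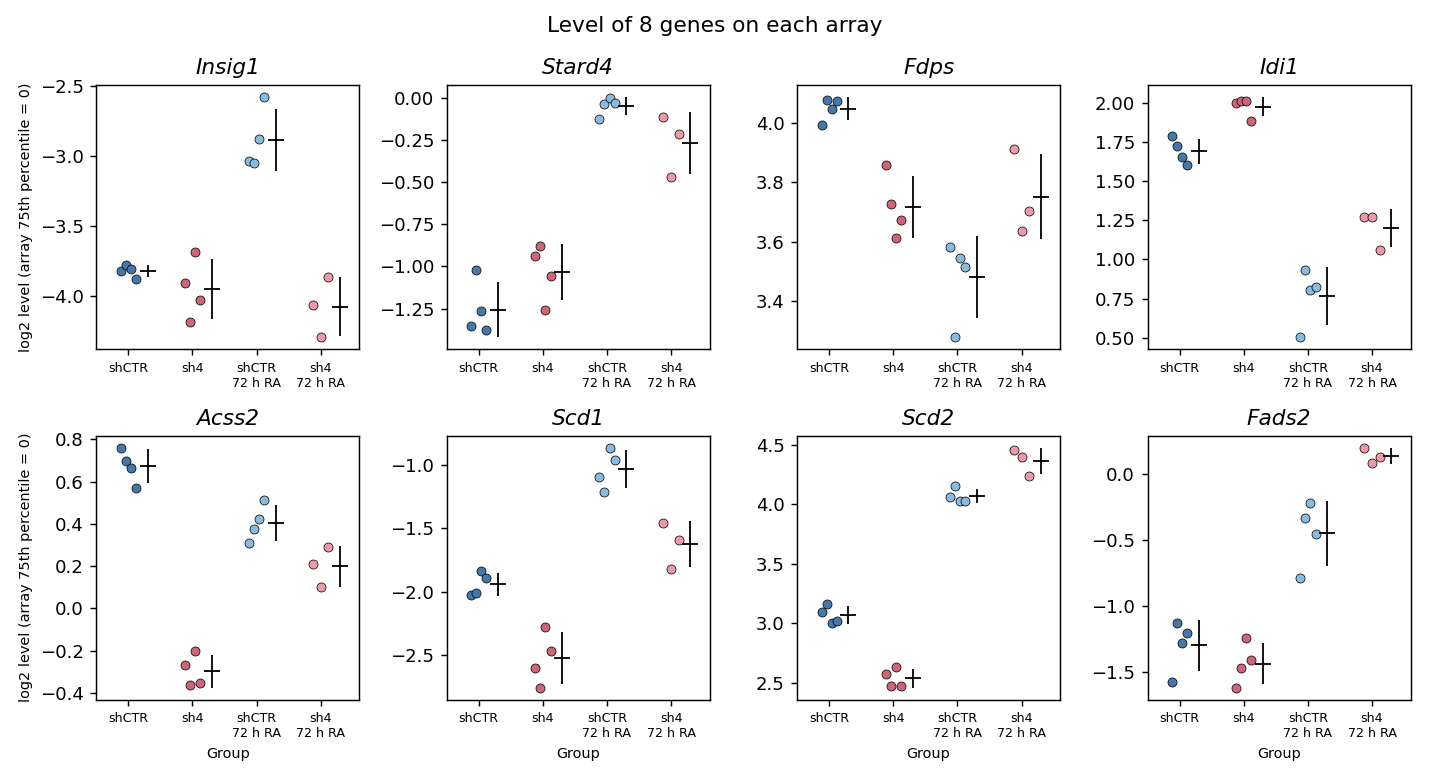
Log2 level (0 is the 75th percentile of each array) of 8 genes on every array, by group. Points are arrays, and the cross beside them gives the mean and SD of the 3 or 4 arrays. For Insig1 the treated shCTR arrays stand alone above the rest, for Acss2 the untreated sh4 arrays stand alone below, and for Scd2 the order of the hairpins is opposite in untreated and treated cells.

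In the first steps of the sterol pathway, the genes that make and condense isoprene units did not move together. Idi1, which isomerises isopentenyl diphosphate, measured 1.79, 1.72, 1.65 and 1.60 on the untreated shCTR arrays and 2.00, 2.01, 2.01 and 1.89 on the untreated sh4 arrays. After retinoic acid Idi1 measured 0.51, 0.93, 0.81 and 0.82 in shCTR and 1.27, 1.27 and 1.06 in sh4. The 4 groups did not overlap: sh4 was above shCTR in each treatment and untreated above treated in each hairpin. Idi1 fell with retinoic acid by 0.92 ± 0.09 in shCTR (adjusted p = 6.1e-07) and by 0.78 ± 0.10 in sh4 (adjusted p = 8.9e-06). Between hairpins it was higher in sh4 by 0.29 ± 0.09 in untreated cells (adjusted p = 0.028) and by 0.43 ± 0.10 in retinoic acid (adjusted p = 0.0054). Both hairpin calls were sensitive: the untreated one was lost when sh4 replicate 1, 2 or 3 or shCTR replicate 3 or 4 was left out (adjusted p of 0.06 to 0.077), and the treated one without the 3 arrays rated as needing evaluation (adjusted p = 0.052).

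Fdps, which makes farnesyl diphosphate, was the gene of the sterol enzymes whose hairpin difference depended most on treatment. Fdps measured 3.99, 4.08, 4.05 and 4.07 on the untreated shCTR arrays, 3.86, 3.73, 3.61 and 3.67 on the untreated sh4 arrays, 3.58, 3.28, 3.55 and 3.52 in treated shCTR, and 3.91, 3.64 and 3.71 in treated sh4. Untreated shCTR was thus above all other arrays, and treated shCTR below all others. The difference between hairpins was −0.33 ± 0.08 in untreated cells (adjusted p = 0.0084) and 0.27 ± 0.09 in retinoic acid (adjusted p = 0.049), and the interaction was 0.60 ± 0.12 (adjusted p = 0.0032). The second of these calls held only when no array, treated sh4 replicate 3, treated shCTR replicate 1 or untreated sh4 replicate 1 was left out, and was lost in the other 12 single-array omissions (adjusted p of 0.05 to 0.24). The interaction held in every alternative. Retinoic acid lowered Fdps in shCTR by 0.57 ± 0.08 (adjusted p = 3.9e-05), and in sh4 the difference was 0.03 ± 0.09 (adjusted p = 0.78). The sh4 difference depended on the scaling. Fdps was called higher after retinoic acid in sh4 with quantile normalisation (0.29, adjusted p = 0.0094) and with normexp background correction and quantile normalisation (0.36, adjusted p = 0.0092). Processed pseudogenes of Fdps could add to its signal.

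Mvk and Pmvk, the kinases that phosphorylate mevalonate in turn, were also lower in untreated sh4, and unlike Fdps neither was called between hairpins in retinoic acid (0.05, adjusted p = 0.77, and −0.02, adjusted p = 0.93). Mvk measured 3.22, 3.22, 3.22 and 3.45 on the untreated shCTR arrays, 2.91, 2.91, 3.04 and 2.95 on the untreated sh4 arrays, 2.91, 2.84, 3.02 and 3.08 in treated shCTR, and 3.04, 2.89 and 3.11 in treated sh4. Pmvk measured 3.43, 3.48, 3.73 and 3.64 on the untreated shCTR arrays, 3.21, 3.18, 3.37 and 3.23 on the untreated sh4 arrays, 3.33, 3.16, 3.39 and 3.46 in treated shCTR, and 3.33, 3.19 and 3.41 in treated sh4. For both genes untreated shCTR lay above untreated sh4 with no overlap, and the treated hairpins overlapped. The untreated difference was −0.32 ± 0.08 for Mvk (adjusted p = 0.0063) and −0.32 ± 0.09 for Pmvk (adjusted p = 0.015), and both were lost with array medians subtracted (adjusted p = 0.11 and 0.16). Treated shCTR was lower than untreated shCTR by 0.32 for Mvk (adjusted p = 0.0027) and by 0.23 for Pmvk (adjusted p = 0.033), and these falls were lost with quantile normalisation, where they were −0.10 for Mvk (adjusted p = 0.24) and 0.004 for Pmvk (adjusted p = 0.97), while in sh4 both genes were then called higher after retinoic acid (0.27, adjusted p = 0.009, and 0.28, adjusted p = 0.021). The Mvk interaction of 0.38 ± 0.11 (adjusted p = 0.033) was lost in 8 of the 15 single-array omissions (adjusted p of 0.055 to 0.089), and that of Pmvk, 0.29 ± 0.13, was not called (adjusted p = 0.15). The untreated Pmvk call was lost without shCTR replicate 3 (adjusted p = 0.052), and the Pmvk fall in shCTR without treated replicates 1 or 2 or untreated replicates 3 or 4 (adjusted p of 0.062 to 0.11). A second probe gave −0.28 for the untreated hairpin difference of either gene.

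Hmgcs1, which makes the precursor of mevalonate and carries the SRE printed above, ranged from 3.13 to 3.25 in untreated shCTR, 3.33 to 3.54 in untreated sh4, 3.20 to 3.39 in treated shCTR and 3.36 to 3.62 in treated sh4. It was higher in sh4 by 0.24 ± 0.08 in untreated cells (adjusted p = 0.028), without overlap, and by 0.22 ± 0.08 in retinoic acid (adjusted p = 0.075). The first call was lost without sh4 replicates 2, 3 or 4 or shCTR replicates 1 or 2 (adjusted p of 0.051 to 0.08), with array medians subtracted (adjusted p = 0.42), with normexp and quantile normalisation (adjusted p = 0.12) and without the 3 arrays rated as needing evaluation (adjusted p = 0.19), and the second passed without treated sh4 replicate 3 (adjusted p = 0.031) and with the slide as a block (adjusted p = 0.011). With quantile normalisation Hmgcs1 was called higher after retinoic acid in shCTR (0.32, adjusted p = 0.0028) and in sh4 (0.30, adjusted p = 0.0067), where the 75th percentile gave 0.10 and 0.07. Mvd, the decarboxylase that ends the mevalonate steps, fell with retinoic acid by 0.69 ± 0.16 in shCTR (adjusted p = 0.002) and by 0.56 ± 0.18 in sh4 (adjusted p = 0.013), and did not pass between hairpins. Acat2, the thiolase at the start of the pathway, passed no test, with 95% intervals over the 4 pairwise comparisons between −0.43 and 0.44. Its probe may also read the near-identical neighbour Acat3.

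Past squalene, the enzymes again split by direction. Sqle, the monooxygenase that opens the committed steps, measured 2.55, 2.59, 2.59 and 2.63 on the untreated shCTR arrays, 2.87, 2.77, 3.05 and 2.91 on the untreated sh4 arrays, 2.72, 2.72, 2.91 and 2.95 in treated shCTR, and 3.26, 3.07 and 3.15 in treated sh4. The sh4 arrays were above the shCTR arrays of the same treatment without overlap. The difference was 0.31 ± 0.08 in untreated cells (adjusted p = 0.0067) and 0.34 ± 0.08 in retinoic acid (adjusted p = 0.0093), and the interaction was 0.03 ± 0.11 (95% interval −0.22 to 0.27). Retinoic acid raised Sqle by 0.24 in shCTR (adjusted p = 0.014) and by 0.26 in sh4 (adjusted p = 0.013). Without treated sh4 replicate 1, the treated hairpin call and the sh4 rise were lost (adjusted p = 0.054 and 0.067), and with array medians subtracted all 4 Sqle calls were lost (adjusted p of 0.16 to 0.85). The treated hairpin difference stood at the threshold without the 3 arrays rated as needing evaluation (0.29, adjusted p = 0.05).

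Tm7sf2, a reductase of the sterol double bond at carbon 14, fell with retinoic acid and fell less in sh4. Tm7sf2 measured 1.31, 1.63, 1.45 and 1.60 on the untreated shCTR arrays, 1.41, 1.5, 1.40 and 1.48 on the untreated sh4 arrays, 0.63, 0.54, 0.83 and 0.70 in treated shCTR, and 1.09, 0.99 and 1.06 in treated sh4. The untreated hairpins overlapped, and the 3 treated sh4 arrays lay between the untreated arrays and the treated shCTR arrays. The fall was 0.82 ± 0.08 in shCTR (adjusted p = 6.6e-07) and 0.40 ± 0.09 in sh4 (adjusted p = 0.0012), the treated hairpin difference was 0.37 ± 0.09 (adjusted p = 0.0073), and the interaction was 0.43 ± 0.12 (adjusted p = 0.021). The interaction was lost without treated sh4 replicate 1 (adjusted p = 0.054), and it and the treated hairpin call were lost with array medians subtracted (adjusted p = 0.12 and 0.077). A second Tm7sf2 probe gave 0.37 for the treated hairpin difference and −1 and −0.57 for retinoic acid.

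Ebp, the sterol isomerase, and Hsd17b7, a ketosteroid reductase, were higher after retinoic acid. Ebp measured 3.23, 3.16, 3.62 and 3.70 on the untreated shCTR arrays, 3.30, 3.00, 3.51 and 3.37 on the untreated sh4 arrays, 4.20, 4.05, 4.29 and 4.44 in treated shCTR, and 4.02, 3.74 and 4.06 in treated sh4. Every treated array was above every untreated one. Ebp rose by 0.82 ± 0.15 in shCTR (adjusted p = 0.00023) and by 0.65 ± 0.16 in sh4 (adjusted p = 0.0029), the latter lost with array medians subtracted (adjusted p = 0.079). Hsd17b7 measured −2.69, −2.52, −2.71 and −2.67 on the untreated shCTR arrays, −2.96, −2.85, −3.33 and −3.02 on the untreated sh4 arrays, −2.25, −2.04, −2.43 and −2.33 in treated shCTR, and −2.26, −2.33 and −2.66 in treated sh4. Untreated sh4 was the lowest group and overlapped none of the others. The untreated hairpin difference was −0.39 ± 0.12 (adjusted p = 0.026) and was lost without sh4 replicate 3 or shCTR replicate 2 (adjusted p = 0.075 and 0.072). The rise with retinoic acid was 0.62 ± 0.13 in sh4 (adjusted p = 0.00088) and 0.39 ± 0.12 in shCTR (adjusted p = 0.013), and a second, dimmer probe gave −0.10, 0.69 and 0.90 for the same 3 differences.

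The other late enzymes moved little. Dhcr7, which makes cholesterol from its last precursor, rose with retinoic acid in shCTR by 0.39 ± 0.10 (adjusted p = 0.0045). In sh4 its difference was 0.23 ± 0.11 (adjusted p = 0.093), passing without treated sh4 replicate 3 or untreated sh4 replicate 3 (adjusted p of 0.015 to 0.044). The Dhcr7 and Hsd17b7 rises in shCTR were lost with quantile normalisation (adjusted p = 0.082 and 0.059). Nsdhl, a demethylating dehydrogenase, fell with retinoic acid by 0.23 in shCTR (adjusted p = 0.022) and by 0.26 in sh4 (adjusted p = 0.018). These calls were lost without shCTR replicate 4, treated or untreated (adjusted p = 0.065 to 0.074), and without treated sh4 replicate 4 (adjusted p = 0.084), and a second probe gave −0.02 and 0.08. Lss, which cyclises squalene epoxide to lanosterol, fell with retinoic acid in sh4 by 0.25 (adjusted p = 0.025), lost without treated sh4 replicates 1 or 3 or untreated sh4 replicates 3 or 4 (adjusted p of 0.06 to 0.11). Its interaction of −0.34 ± 0.12 (adjusted p = 0.062) passed without treated sh4 replicate 4, treated shCTR replicate 2 or untreated sh4 replicate 1 (adjusted p of 0.036 to 0.045). Fdft1, the squalene synthase, and Cyp51, which demethylates lanosterol, passed none of the 5 tests. Their 95% intervals over the 4 pairwise comparisons ran from −0.34 to 0.28 and from −0.28 to 0.33, although Cyp51 was called lower after retinoic acid in shCTR with array medians subtracted (−0.27, adjusted p = 0.02) and with quantile normalisation (−0.21, adjusted p = 0.037). With both Fdft1 probes averaged, Fdft1 was called higher after retinoic acid in shCTR (0.48, adjusted p = 0.023) and in sh4 (0.76, adjusted p = 0.0023). The second Fdft1 probe was very dim, with a mean signal of 7.55, and gave 1.07 and 1.5.

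**Figure D4:**
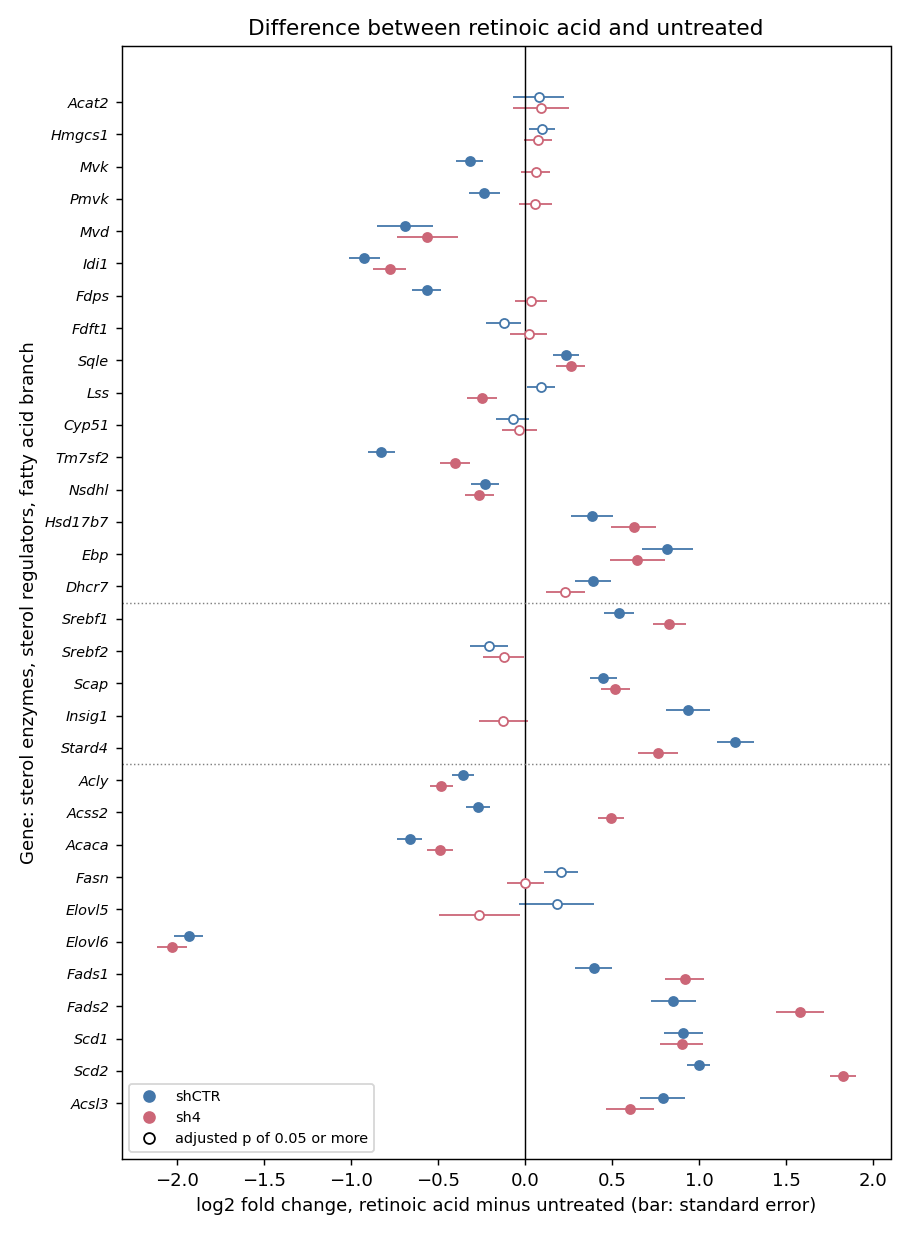
Log2 fold change of 72 hours of retinoic acid against untreated for each gene in shCTR (blue, 4 against 4 arrays) and sh4 (red, 3 against 4 arrays). Bars are standard errors and open circles mark an adjusted p of 0.05 or more. Elovl6 lies near −2 in both hairpins, the desaturases Scd1, Scd2, Fads1 and Fads2 lie to the right of 0, and Insig1, Scd2, Fads2 and Acss2 show wide gaps between the hairpins.

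Among the genes that supply acetyl-CoA and malonyl-CoA, Acss2 was set apart by the hairpin, and Acly and Acaca by retinoic acid. Acss2, the acetyl-CoA synthetase of the cytosol and nucleus, measured 0.76, 0.70, 0.67 and 0.57 on the untreated shCTR arrays and −0.27, −0.36, −0.20 and −0.35 on the untreated sh4 arrays. After retinoic acid it measured 0.31, 0.38, 0.42 and 0.51 in shCTR and 0.21, 0.10 and 0.29 in sh4. Untreated sh4 lay below all other arrays, and the treated hairpins did not overlap. Acss2 in untreated sh4 stood at 51% of its shCTR level (−0.97 ± 0.07, adjusted p = 1.6e-07). In retinoic acid the difference was −0.21 ± 0.07 (adjusted p = 0.068), and the interaction was 0.77 ± 0.10 (adjusted p = 0.00011). Retinoic acid lowered Acss2 in shCTR by 0.27 ± 0.07 (adjusted p = 0.0035) and raised it in sh4 by 0.50 ± 0.07 (adjusted p = 5e-05). A second probe gave −0.94 and −0.38 for the hairpin and −0.10 and 0.46 for retinoic acid, and the fall in shCTR missed the threshold when all probes were averaged (adjusted p = 0.086).

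Acly, which splits citrate into acetyl-CoA, and Acaca, which makes malonyl-CoA, fell with retinoic acid in both hairpins at this scaling. Acly ranged from 4.73 to 4.90 in untreated shCTR, 4.88 to 4.95 in untreated sh4, 4.35 to 4.53 in treated shCTR and 4.38 to 4.48 in treated sh4. It fell by 0.36 ± 0.06 in shCTR (adjusted p = 0.00015) and by 0.48 ± 0.07 in sh4 (adjusted p = 2.3e-05). Acaca ranged from 3.61 to 3.82, 3.5 to 3.71, 2.96 to 3.1 and 3.02 to 3.18 in the same order, and fell by 0.66 ± 0.07 (adjusted p = 1.8e-06) and by 0.49 ± 0.08 (adjusted p = 8.4e-05). With normexp background correction and quantile normalisation, the Acly differences were −0.07 in shCTR (adjusted p = 0.51) and −0.17 in sh4 (adjusted p = 0.12) and the Acaca difference in sh4 was −0.24 (adjusted p = 0.061). A second bright Acaca probe gave −0.53 and −0.43. Fasn, the fatty acid synthase itself, passed no test: its differences were −0.002 ± 0.098 and −0.21 ± 0.11 for the hairpin, untreated and treated, and 0.21 ± 0.10 and 0.003 ± 0.106 for retinoic acid in shCTR and sh4. The Fasn difference in shCTR (adjusted p = 0.082) passed with the slide as a block (adjusted p = 0.014) and without untreated sh4 replicate 3 (adjusted p = 0.037).

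The elongase Elovl6, which extends palmitate to stearate, had the largest fall of the whole list in retinoic acid in both hairpins. Elovl6 measured 3.04, 3.04, 2.87 and 3.18 in untreated shCTR, 2.73, 2.93, 3.04 and 3.01 in sh4 without treatment, 0.98, 1.16, 1.14 and 1.12 in treated shCTR, and 0.90, 0.90 and 0.92 in treated sh4. Treated and untreated arrays were far apart, the untreated hairpins overlapped, and treated sh4 lay just below treated shCTR. It fell to 26.2% of the untreated level in shCTR (−1.93 ± 0.08, adjusted p = 1.2e-10) and to 24.6% in sh4 (−2.03 ± 0.09, adjusted p = 2.2e-10). The interaction was −0.09 ± 0.12 (95% interval −0.35 to 0.17), and the treated hairpin difference of −0.20 ± 0.09 missed the threshold (adjusted p = 0.15). Elovl5, an elongase of polyunsaturated chains with an SRE spelling just past its start site, passed no test. Its treated sh4 arrays gave 1.07, 2.05 and 2.02, with replicate 1 apart from the other two, and its other groups ranged from 1.5 to 2.27.

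The desaturases rose together with retinoic acid and parted by hairpin. Scd2, which puts the first double bond into stearate and is expressed in embryonic and neonatal tissue, measured 3.1, 3.16, 3.00 and 3.02 on the untreated shCTR arrays and 2.57, 2.47, 2.64 and 2.47 on the untreated sh4 arrays. After retinoic acid Scd2 measured 4.06, 4.15, 4.02 and 4.03 in shCTR and 4.46, 4.40 and 4.24 in sh4. None of the 4 groups overlapped: sh4 was the lower hairpin in untreated cells and the higher one in retinoic acid. The hairpin difference was −0.53 ± 0.07 untreated (adjusted p = 3.5e-05) and 0.30 ± 0.07 treated (adjusted p = 0.0089), with an interaction of 0.83 ± 0.10 (adjusted p = 4.7e-05). Retinoic acid raised Scd2 to 200% of the untreated level in shCTR (1.00 ± 0.07, adjusted p = 1.3e-08) and to 355% in sh4 (1.83 ± 0.07, adjusted p = 8.3e-11). The treated hairpin call was lost without treated sh4 replicate 1 (adjusted p = 0.053) and with array medians subtracted (adjusted p = 0.066).

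Scd1, a nearby gene on the same chromosome with the same reaction, took the same direction with retinoic acid. It had a hairpin difference of like size in both treatments. Scd1 measured −2.02, −2.01, −1.84 and −1.89 on the untreated shCTR arrays, −2.60, −2.75, −2.27 and −2.46 on the untreated sh4 arrays, −1.09, −1.21, −0.86 and −0.96 in treated shCTR, and −1.46, −1.82 and −1.59 in treated sh4. The sh4 arrays were below the shCTR arrays of the same treatment without overlap. The hairpin difference was −0.58 ± 0.11 untreated (adjusted p = 0.0014) and −0.59 ± 0.12 treated (adjusted p = 0.0033), and the interaction was −0.01 ± 0.17 (95% interval −0.37 to 0.35). Scd1 rose with retinoic acid by 0.91 ± 0.11 in shCTR (adjusted p = 7.8e-06) and by 0.90 ± 0.12 in sh4 (adjusted p = 2.1e-05). The treated hairpin call missed the threshold with array medians subtracted (adjusted p = 0.08).

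The Scd1 and Scd2 probes lay at chr19:44469387-44469446 and chr19:44381024-44381083 (mm9). The parting of Scd2 and Scd1 in treated cells was tested on the difference between both genes within each array. Subtracting a single value per array cannot change that difference, but quantile normalisation can. This test was chosen after the values were seen. The difference Scd2 minus Scd1 was larger in treated sh4 than in treated shCTR by 0.89, in untreated sh4 than in untreated shCTR by 0.05, with retinoic acid in sh4 by 0.93 and with retinoic acid in shCTR by 0.09. Two-sided exact permutation tests over arrays gave p = 0.029, 0.6, 0.029 and 0.51, where 0.029 is the smallest p that these group sizes allow. The same 4 comparisons for Fads2 minus Fads1 gave 0.44, 0.24, 0.66 and 0.46, with exact permutation p = 0.057, 0.11, 0.029 and 0.057. Adjusted over the 8 tests, the smallest p was 0.077. With that floor, and with the slides not used, these tests have little reach. In treated cells Scd2 minus Scd1 did not overlap between shCTR and sh4.

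Fads1 and Fads2, the delta-5 and delta-6 desaturases of polyunsaturated fatty acids, lie side by side in the genome and rose more with retinoic acid in sh4. Fads2 measured −1.58, −1.13, −1.28 and −1.21 on the untreated shCTR arrays, −1.62, −1.48, −1.25 and −1.41 on the untreated sh4 arrays, −0.79, −0.33, −0.22 and −0.46 in treated shCTR, and 0.20, 0.09 and 0.14 in treated sh4. The untreated hairpins overlapped, and treated sh4 lay above all other arrays. It rose to 181% of the untreated level in shCTR (0.85 ± 0.13, adjusted p = 4.8e-05) and to 299% in sh4 (1.58 ± 0.14, adjusted p = 2.8e-07). The treated hairpin difference was 0.59 ± 0.14 (adjusted p = 0.0075), and the interaction was 0.73 ± 0.19 (adjusted p = 0.014), which missed the threshold with array medians subtracted (adjusted p = 0.056) and without the 3 arrays rated as needing evaluation (adjusted p = 0.055). A second, dimmer Fads2 probe gave smaller differences, 0.32 for the treated hairpin and 0.68 and 0.94 for retinoic acid in shCTR and sh4.

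Fads1 measured −0.52, −0.56, −0.33 and −0.40 on the untreated shCTR arrays, −0.94, −0.98, −0.73 and −0.66 on the untreated sh4 arrays, −0.22, −0.24, 0.14 and 0.09 in treated shCTR, and 0.19, 0.01 and 0.07 in treated sh4. Untreated sh4 was lowest with no overlap, and the treated hairpins overlapped. Fads1 was lower in untreated sh4 by 0.38 ± 0.11 (adjusted p = 0.017) and rose with retinoic acid by 0.39 ± 0.11 in shCTR (adjusted p = 0.0051) and by 0.92 ± 0.11 in sh4 (adjusted p = 9.7e-06). Its interaction of 0.52 ± 0.16 (adjusted p = 0.031) was lost in 8 of the 15 single-array omissions (adjusted p of 0.054 to 0.083). The untreated call was lost without sh4 replicate 2 or shCTR replicate 3 (adjusted p = 0.053 to 0.054), and the untreated call and the rise in shCTR were lost with array medians subtracted (adjusted p = 0.12 and 0.35).

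Acsl3, which activates fatty acids to their CoA esters at lipid droplets and the endoplasmic reticulum, was the fatty acid gene that was higher in sh4 in untreated cells. Acsl3 measured −0.59, −0.69, −0.77 and −0.96 on the untreated shCTR arrays, 0.03, −0.04, −0.28 and −0.33 on the untreated sh4 arrays, 0.22, 0.24, −0.20 and −0.11 in treated shCTR, and 0.53, 0.56 and 0.25 in treated sh4. Within each treatment every sh4 array was above every shCTR array. The difference was 0.60 ± 0.13 untreated (adjusted p = 0.0029) and 0.41 ± 0.14 treated (adjusted p = 0.053), and the treated one passed in 4 single-array omissions, those of treated sh4 replicate 4, treated shCTR replicates 1 and 2 and untreated shCTR replicate 4 (adjusted p of 0.037 to 0.049), and with the slide as a block (adjusted p = 0.0024). Acsl3 rose with retinoic acid by 0.79 ± 0.13 in shCTR (adjusted p = 9.4e-05) and by 0.60 ± 0.14 in sh4 (adjusted p = 0.0019).

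Other genes of the same pathways, taken from lists of 8, 14 and 25 genes outside the 32, gave mixed directions as well. Of the further sterol pathway genes, Sc5d, a desaturase of the sterol ring, rose between hairpins in untreated cells by 0.31 ± 0.06 (adjusted p = 0.001). In retinoic acid 3 of 8 rose, where 10.9% of all tested genes rose, and 5 did not pass. The rises were led by Msmo1, a methyl sterol oxidase, at 0.44 ± 0.06 (adjusted p = 8.7e-05). Insig2, the paralogue of Insig1, was one of these 3, with a treated hairpin difference of 0.17 ± 0.05 (adjusted p = 0.036) against the −1.19 of Insig1. With retinoic acid 2 rose and 2 fell in sh4 (27.1% and 31.6% of all genes), and Sc5d rose in both hairpins (0.85 in shCTR and 0.78 in sh4).

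Among 14 genes of sterol transport and storage, 2 rose and 1 fell between hairpins in untreated cells (14.4% and 14.1% of all genes). Soat1, which esterifies cholesterol, rose by 0.97 ± 0.19 (adjusted p = 0.0012). In retinoic acid 2 rose and 2 fell (10.9% and 10.3% of all genes). The falls were Abca1, a cholesterol exporter (−0.60 ± 0.08, adjusted p = 9.8e-05), and Npc1, the lysosomal cholesterol transporter (−0.55 ± 0.11, adjusted p = 0.0023). Retinoic acid raised 7 and lowered 6 of the 14 in shCTR (29% and 33.5% of all genes) and raised 5 and lowered 4 in sh4 (27.1% and 31.6% of all), with Lipa, the lysosomal lipase, up by 2.39 and 2.07. Of 24 tested genes out of 25 further fatty acid synthesis genes, 5 rose and 4 fell with the hairpin in untreated cells (14.4% and 14.1% of all genes) and 4 rose and 4 fell in retinoic acid (10.9% and 10.3% of all). The largest of these were Acsl5, an acyl-CoA synthetase (1.67 ± 0.09 untreated, 0.64 ± 0.10 treated), Thrsp, a lipogenic protein (−1.21 ± 0.09 and −0.65 ± 0.10), and Elovl7, an elongase (−0.81 ± 0.08 and −0.66 ± 0.09). With retinoic acid 10 rose and 9 fell in shCTR (29% and 33.5% of all genes), and 7 rose and 8 fell in sh4 (27.1% and 31.6% of all). Thrsp was lowest (−2.80 and −2.24) and Elovl1 highest (2.22 and 1.51).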

How the data were processed

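Total RNA (500 ng) of 15 samples was labelled with Cy3 and hybridised to 1-colour Agilent arrays, 1 sample per array, per the labels' protocols. The deposited scanner files hold spot intensity, processed with Feature Extraction 10.7.3.1 (background subtraction and detrending, no scaling between arrays), per the file headers. The deposited table of log2 values differed from normexp correction (offset 50) with quantile normalisation of the mean spot signal by a median of 3.43e-10 over 44397 rows; the authors' steps for it were not given in the sources used here, and it was an alternative setting only.

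From the processed intensity of 43020 non-control spots, spots marked as outliers were left out and the rest averaged to 39429 probes, of which 117 without a usable spot on some array were dropped, leaving 39312. Log2 intensities were taken relative to the 75th percentile of their array. The brightest probe of each gene name stood for the gene. A probe was kept if 3 or more arrays of some group had it well above background, and a gene was tested if its brightest probe was kept (25085 genes). Gene names are those of the array design, and probe positions follow the files (mm9). Promoter sequences and their coordinates are RefSeq's, on GRCm38.p6, and were not mixed with mm9.

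Differences were tested with limma 3.58.1 (R 4.3.3), two-sided, by fitting the 4 groups and all 15 arrays together, with Benjamini-Hochberg adjustment over all genes within a comparison and a threshold of 0.05. Tables were handled with data.table (version 1.17.8). The procedure was tested on simulated data. Some results of the further sterol pathway genes are not reported here. Genes given array by array were Srebf1, Srebf2, Scap and Insig1 and, in each comparison, the 4 sterol and the 4 fatty acid genes with the largest difference among those past the threshold; genes that passed no test are named as such, and up to 3 genes per comparison are named from each other list by the same rule. The members and the gene lists were chosen with earlier results of these data known. Alternatives were other scalings and background corrections, no filter on dim probes or a stricter one, the mean of a gene's probes, only the groups compared, slide or replicate number as a block, leaving out each array in turn, and leaving out the 3 arrays rated as needing evaluation.

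Replicate numbers were checked for pairing by correlating deviations from the group means. All 21 same-slide pairs were above 0.1 (15 pairs of the same number at 0.115 to 0.578, and 6 of different numbers at 0.408 to 0.607). The 6 pairs with the same number on different slides ran from −0.533 to 0.558, so arrays pair by slide and not by number. Slide 4 held no treated sh4 array, and slides 1 to 3 held all 4 groups.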

Additional observations from a re-analysis of the deposited data

Results flagged for a closer look

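The hairpin difference depended on treatment, by limma's test of the interaction, for 8 genes. Treated minus untreated, it was −1.06 for Insig1, 0.83 for Scd2, 0.765 for Acss2, 0.729 for Fads2, 0.598 for Fdps, 0.523 for Fads1, 0.425 for Tm7sf2 and 0.376 for Mvk. For Insig1 the hairpins parted only in retinoic acid, and for Acss2 the call was made only in untreated cells, while Scd2 and Fdps were called in opposite directions in untreated and treated cells. The interactions of Insig1, Scd2, Acss2 and Fdps held in every alternative run, and those of Fads2, Fads1, Tm7sf2 and Mvk were each lost in at least 1.

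Of 96 sets of 4 arrays examined for a single array far from the other 3, 4 had one, and chance gives about 1 in 20. Mvk read 3.447 on untreated shCTR replicate 4, where the nearest array read 3.221. Idi1 read 1.886 on untreated sh4 replicate 4 against 2.002, Nsdhl read −1.667 on untreated shCTR replicate 4 against −1.78, and Acaca read 2.961 on treated shCTR replicate 2 against 3.083. The group of 3 arrays was not examined in this way, which leaves out Elovl5 in treated sh4.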

How the results depend on the processing

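Of the 72 calls, 47 held with array medians subtracted in place of the 75th percentile, and 56 in all 15 fits that left out 1 array. With array medians subtracted, the called sterol genes numbered 1 for the hairpin in untreated cells, 2 for the hairpin in retinoic acid and 2 for the interaction, the called fatty acid genes of the interaction numbered 2, and the sterol median with retinoic acid in shCTR turned to −0.124. Over all genes that scaling gave 4981 calls for the hairpin in untreated cells (7166 otherwise). It gave 3299 for the hairpin in retinoic acid (5325 otherwise) and 2976 for the interaction (5135 otherwise). With quantile normalisation Pmvk with retinoic acid in shCTR turned to 0.004. For the hairpin in retinoic acid, 8 sterol genes were called with the slide as a block, where all genes gave 7070 calls. Without the arrays rated as needing evaluation, Idi1 and Fdps missed the threshold in that comparison (adjusted p = 0.052 and 0.25). Sqle stood at it (adjusted p = 0.05), and all genes gave 3993 calls. In the same fit 2 fatty acid genes remained for the interaction, where all genes gave 3897 calls. Leaving out single arrays gave 3 to 6 sterol genes for the hairpin in retinoic acid, and 3948 to 5393 calls over all genes. With the replicate number as a block, 5 fatty acid genes were called for the hairpin in retinoic acid, and Fdps lost its call (adjusted p = 0.06). All genes gave 6297 calls in that fit. With the slide as a block all 72 calls held. Over all alternatives, 1864 values of called genes split into 1734 that kept the call, 129 that lost it and 1 that reversed, and 70 of 2264 values of uncalled genes gained one. The cause of a lost call was not tested in any setting. All 32 genes were well above background on every array.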

Other observations

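Fatty acid oxidation, the pathway that breaks down what the 11 fatty acid genes build, was read from a list of 20 genes. In untreated cells 13 of the 20 were lower in sh4 and 2 were higher, with a median difference of −0.37, beside 14.1% and 14.4% of all tested genes. The 13 include Ppargc1a, whose probe was well above background on no untreated array, so its level there was not measured. Among those that fell in limma's test were Acaa2, the last thiolase of mitochondrial oxidation (−0.87 ± 0.06, adjusted p = 1.1e-07), the carnitine carrier Slc25a20 (−0.79 ± 0.10, adjusted p = 2.4e-05) and Cpt1a, which commits fatty acids to the mitochondrion (−0.72 ± 0.10, adjusted p = 0.00012). Acadl, a dehydrogenase of long chains, was one of the 2 that rose (0.40 ± 0.06, adjusted p = 0.00025).

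In retinoic acid 5 of the 20 were lower in sh4 and 4 higher (10.3% and 10.9% of all genes), with a median of −0.01. Retinoic acid lowered 12 and raised 5 in shCTR (33.5% and 29% of all), where Cpt1a fell by 3.25 and Acaa2 by 1.83, and lowered 6 and raised 4 in sh4 (31.6% and 27.1% of all). In the interaction 8 rose and 1 fell (10.2% of all genes each way), with a median of 0.34, led by Acaa2 (1.22 ± 0.09, adjusted p = 6e-07) and Acadl (−1.19 ± 0.09, adjusted p = 1.2e-06). All 8 trophectoderm markers passed as higher with the hairpin in the same untreated samples, Elf5 with no shCTR array well above background, and their part in these differences was not tested.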
